A study of Rattus norvegicus and Mus musculus with 9 samples.

Results

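Oct4, Sox2 and 6 further regulators or markers of the pluripotent state were followed by gene symbol in embryonic stem (ES) cells of rat and mouse and in rat embryonic fibroblasts. The 8 genes are Pou5f1 (which encodes Oct4), Sox2, Tfcp2l1, Tbx3, Zscan10, Fbxo15, Zfp57 and Prdm14. They were taken as the probe sets whose platform gene symbol matches one of these names. On the rat arrays, 7 of the 8 genes were found among 14506 named genes, and no probe set used here carried the symbol Prdm14. In the mouse table all 8 were found among 19938 named genes. Each gene found had 1 probe set per table, so none had to be chosen among several.

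Both rat groups were of the DA strain, with 3 arrays each. Rat ES cultures received a medium labelled 3I, and the rat fibroblasts were derived from embryos and grown in GMEM with 10% FBS. Mouse ES cells came from strain C57/BL6, also with 3 arrays, and were grown in GMEM with 10% FBS to which LIF, a cytokine that sustains mouse ES cells, was added. Per the labels, feeders were taken out of the mouse ES cultures ahead of RNA extraction, and nothing is said on feeders for the rat ES cells. No label says that arrays of 1 group stem from different cultures, so p-values rest on the spread among these arrays alone, and that spread may be technical. Between the rat groups, cell type and medium changed together, and their effects cannot be told apart.

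Oct4 and Sox2 bind DNA side by side at composite octamer and SOX elements and switch on genes of the early embryo's pluripotent cells, their own genes among them. Around this pair stand the transcription factors of the naive state, the condition of ES cells that resembles the epiblast before implantation. Tfcp2l1 and Tbx3 act downstream of the LIF and inhibitor signals that hold cells there, Zscan10 is a zinc finger factor of ES cells, and Prdm14 protects the state by repressing FGF receptor and de novo DNA methylation genes. Fbxo15 is a classical Oct4 and Sox2 target that was used as a reporter for reprogramming, and Zfp57 keeps DNA methylation at imprinted loci.

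The promoter table matched 5 of the 8 genes by symbol (Sox2, Tfcp2l1, Zscan10, Zfp57 and Fbxo15). For the first 4 of them, the 250 bases upstream of the transcription start are printed from RefSeq (rat build GRCr8), 5′ to 3′ on the strand of the gene. Among the genes matched, Sox2, Tfcp2l1 and Zscan10 were far higher in rat ES cells than in fibroblasts, and Zfp57 is set beside them as a gene that differed by less than 2-fold. The window of Fbxo15 is not shown, and Pou5f1, Tbx3 and Prdm14 are named only. Capitals mark a match to one of the motifs searched.
Sox2, chr2:119464881-119465130, plus strand: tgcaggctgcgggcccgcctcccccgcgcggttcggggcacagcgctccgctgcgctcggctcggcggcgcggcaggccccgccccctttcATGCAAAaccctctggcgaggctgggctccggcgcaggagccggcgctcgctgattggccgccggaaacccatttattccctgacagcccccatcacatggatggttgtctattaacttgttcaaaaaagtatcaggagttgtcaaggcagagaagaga
Tfcp2l1, chr13:32286393-32286642, plus strand: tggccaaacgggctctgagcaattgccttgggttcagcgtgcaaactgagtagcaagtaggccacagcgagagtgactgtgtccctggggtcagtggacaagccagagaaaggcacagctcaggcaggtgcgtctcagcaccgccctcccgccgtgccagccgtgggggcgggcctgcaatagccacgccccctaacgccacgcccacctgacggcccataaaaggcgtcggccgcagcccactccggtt
Zscan10, chr10:13140679-13140928, plus strand: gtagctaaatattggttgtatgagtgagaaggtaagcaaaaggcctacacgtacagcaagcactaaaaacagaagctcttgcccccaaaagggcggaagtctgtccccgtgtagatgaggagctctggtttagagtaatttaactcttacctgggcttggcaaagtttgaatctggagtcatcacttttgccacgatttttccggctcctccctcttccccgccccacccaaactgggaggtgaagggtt
Zfp57, chr20:1534919-1535168, minus strand: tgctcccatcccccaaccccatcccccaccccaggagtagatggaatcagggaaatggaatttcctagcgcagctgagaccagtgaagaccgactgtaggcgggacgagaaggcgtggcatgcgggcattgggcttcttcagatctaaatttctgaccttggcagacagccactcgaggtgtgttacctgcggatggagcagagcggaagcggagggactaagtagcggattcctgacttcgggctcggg

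The motifs searched on both strands, chosen with these sequences in view, were the octamer ATGCAAAT, the same octamer without its last base (ATGCAAA, contained in the first) and a SOX site, CATTGTT. The only match among the 4 windows was the shortened octamer of Sox2, whose first base lay at position -159 from the start. Of 27457 rat promoters of the same length, 3.96% held the shortened octamer, 1.50% the full octamer and 3.41% the SOX site. A match is a description of letters and not of binding. In base composition the windows differed. Sox2 held 23 CpG dinucleotides, Tfcp2l1 17, Zfp57 13 and Zscan10 6, against a median of 6 over all promoters. GC content was 64.4%, 64.8%, 58.0% and 48.8% in the same order, against a median of 52.0%. The windows of the 3 genes with a large difference thus ranged from CpG-rich to average.

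The cultures were first checked against markers that are not among the 8 genes. All 9 measured ES cell markers were called higher in rat ES cells, led by Nanog (log2 difference 6.73) and Dppa3 (6.43). Of 14 fibroblast markers, 12 were called lower and none higher by limma (0 higher at an unadjusted p under 0.05 as well), led by Postn, which fell by 5.38 on the log2 scale, and Pdgfrb, by 5.18. Fibroblast markers were not at the bottom of the scale in the rat ES cultures: 8 to 9 of the 14 lay above the array median (the median over all probe sets of an array, here and below), their summed log2 signal was 94.8 to 100.2 against 145.4 to 145.8 in fibroblasts, and none is listed at 0. Their mean was highest on rat ES array 3 (7.16 log2, against 6.77 on array 1 and 6.95 on array 2). On the mouse ES arrays 9 of the 14 lay above the array median. Markers of other lineages were mixed, and no lineage is read from their counts. Of 11 primitive endoderm markers 2 were called higher, Lama1 (4.52) and Hnf4a (1.14), and 3 lower, Dab2 (-4.28) and Col4a1 (-3.96) the most. Of 10 trophoblast markers 4 were called higher, Cdx2 (3.80) and Tfap2c (3.34) the most, and Gata3 (-1.71) lower. Among 7 primed epiblast markers 4 were called higher, Zic2 (4.82) and Cldn6 (3.80) the most, and 3 were not called. Of the uncalled, Sox11 (-0.88) and Fgf5 (-0.47) were lower at a limma adjusted p under 0.05 but by less than 2-fold. Pou3f1 hardly differed (-0.02). Of 5 neural progenitor markers 3 were called lower, Map2 (-3.39) and Ncam1 (-3.25) the most. The part of fibroblast or other lineage cells in the values below was not tested.

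The first comparison asked how far the regulators separate rat ES cells from rat fibroblasts. Of the 7 measured genes, Pou5f1, Tfcp2l1, Tbx3, Sox2 and Zscan10 were called higher in rat ES cells, that is at a Benjamini-Hochberg adjusted p under 0.05 in limma and a difference of at least 2-fold. Over all 14506 genes, 10.6% were called higher, 10.1% lower and 20.7% in either direction. Fbxo15 and Zfp57 passed the same adjusted p but differed by less than 2-fold, and 30.9% of all genes were higher at that p with no fold threshold and 56.3% passed it in either direction. In all 7 genes every rat ES array lay above every fibroblast array, which was so in 33.2% of all genes, while 61.5% did not overlap in either direction. The median log2 difference was 4.44 over the 7 genes and -0.00069 over all genes. Each of the 5 called genes differed by more than 16-fold, a size reached upward by 0.345% of all genes (2.61% reached 4-fold).

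**Figure D1:**
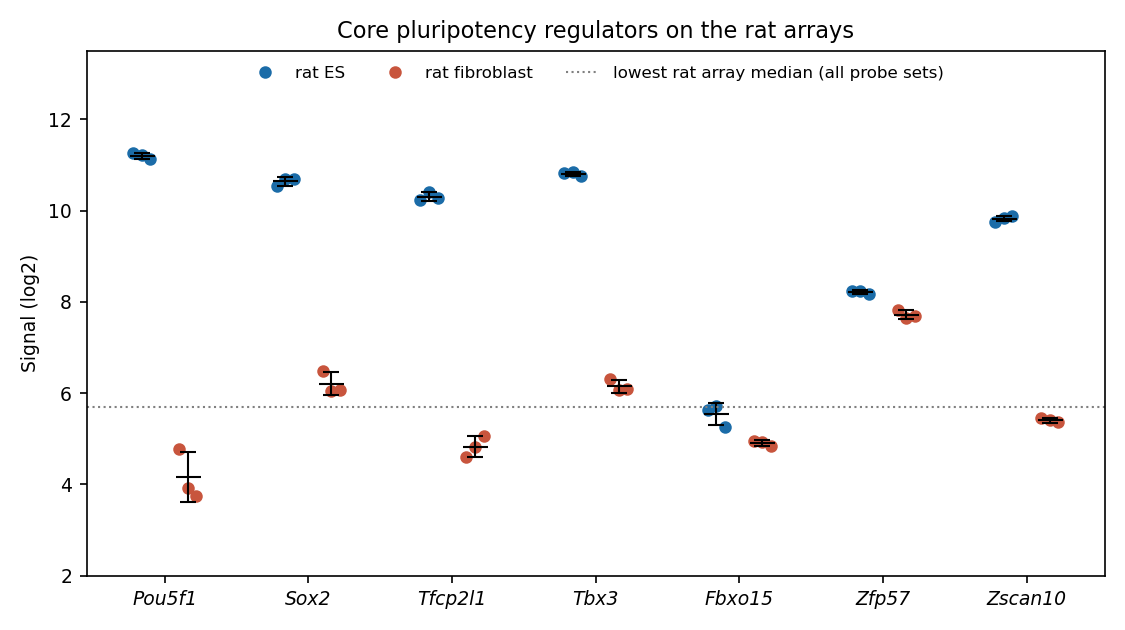
Signal (log2) of the 7 regulators measured on the rat arrays, 1 point per array, with black bars for the mean ± SD of 3 arrays and a dotted line at the lowest array median, 5.71. Pou5f1, Sox2, Tfcp2l1, Tbx3 and Zscan10 lie between 9.76 and 11.26 in rat ES cells, and Fbxo15 lies near or below the line in both groups.

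Oct4 and Sox2 are the core of the network. Pou5f1 gave log2 signals of 11.26, 11.21 and 11.12 on rat ES arrays 1 to 3 and of 4.78, 3.93 and 3.75 on fibroblast arrays 1 to 3. The ES arrays lay within 0.14 of each other, while the fibroblast arrays spanned 1.03, with array 1 apart from the others. The log2 difference was 7.04 (SE 0.23, limma adjusted p = 4.97e-08), or 132-fold with a 95% confidence interval of 90.9 to 192. All 3 fibroblast signals lay below the array medians (5.71 to 5.74), where a signal may not be told from background, so the size of the fold is uncertain. With every value under an array's 25th percentile raised to that percentile, a setting chosen after seeing the data, the difference was 6.47. RefSeq also names 3 rat pseudogenes of Pou5f1, and whether the probe set responds to them was not tested.

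Sox2 read 10.53, 10.69 and 10.70 on the rat ES arrays and 6.49, 6.05 and 6.07 on the fibroblast arrays. The groups were far apart, and the fibroblast signals, unlike those of Pou5f1, stood above the array medians. Against the medians over named genes (6.32 to 6.34 on the fibroblast arrays), only fibroblast array 1 stood above. The log2 difference of Sox2 was 4.44 (SE 0.12, limma adjusted p = 1.97e-08), or 21.6-fold (95% confidence interval 17.8 to 26.3). Of the 14506 genes, 37 rose at least as much as Sox2, itself included, and 2 at least as much as Pou5f1.

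The naive-state factors followed. Tfcp2l1, a CP2-family transcription factor induced by STAT3, gave 10.23, 10.41 and 10.27 in rat ES cells and 4.60, 4.81 and 5.06 in fibroblasts, all 3 of the latter below the array medians. It differed by 5.48 on the log2 scale (SE 0.12, limma adjusted p = 6.68e-09), or 44.6-fold (36.9 to 53.8). Tbx3, a T-box factor, was the most even of the called genes within rat ES cells, at 10.83, 10.83 and 10.76. It read 6.31, 6.06 and 6.09 in fibroblasts, above the array medians but below those over named genes. Its log2 difference was 4.66 (SE 0.08, limma adjusted p = 3.72e-09), or 25.2-fold (22.0 to 28.8). Zscan10 gave 9.76, 9.84 and 9.88 in rat ES cells against 5.45, 5.40 and 5.36 in fibroblasts, all 3 of the latter below the array medians, so that its fold is uncertain in the same way as that of Pou5f1. It had the smallest standard error of the 7 genes, with a log2 difference of 4.42 (SE 0.07, limma adjusted p = 2.11e-09), or 21.4-fold (19.2 to 23.9). The intervals of Sox2, Tbx3 and Zscan10 overlap, and signals of different probe sets are not on a common scale, so no order is read among them.

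Fbxo15 and Zfp57 differed far less. Fbxo15, which encodes an F-box protein of ubiquitin ligase complexes, gave 5.63, 5.72 and 5.26 in rat ES cells and 4.96, 4.92 and 4.84 in fibroblasts. Its rat signals lay below the array medians except on rat ES array 2 (5.72 against a median of 5.71). Rat ES array 3, which had the highest fibroblast marker signal, gave the lowest ES value. On that array Pou5f1, Tbx3 and Zfp57 were also at their lowest, Sox2 and Zscan10 at their highest, and Tfcp2l1 lay between. A link with fibroblast signal was not tested. The log2 difference of Fbxo15 was 0.63 (SE 0.12, limma adjusted p = 0.00163), or 1.55-fold (1.28 to 1.87), and 0.77 without rat ES array 3. At such signals a low transcript level and a weak probe set cannot be told apart. Zfp57, a KRAB zinc finger protein that binds methylated imprinting control regions, was well above the array medians in both rat groups, at 8.24, 8.24 and 8.16 in ES cells and 7.82, 7.64 and 7.70 in fibroblasts. It differed by 0.50 on the log2 scale (SE 0.07, limma adjusted p = 4.10e-04), or 1.41-fold (1.25 to 1.59). Both intervals lie under 2-fold on these arrays and cover only the spread between arrays, which for Fbxo15 was read at low signals.

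**Figure D2:**
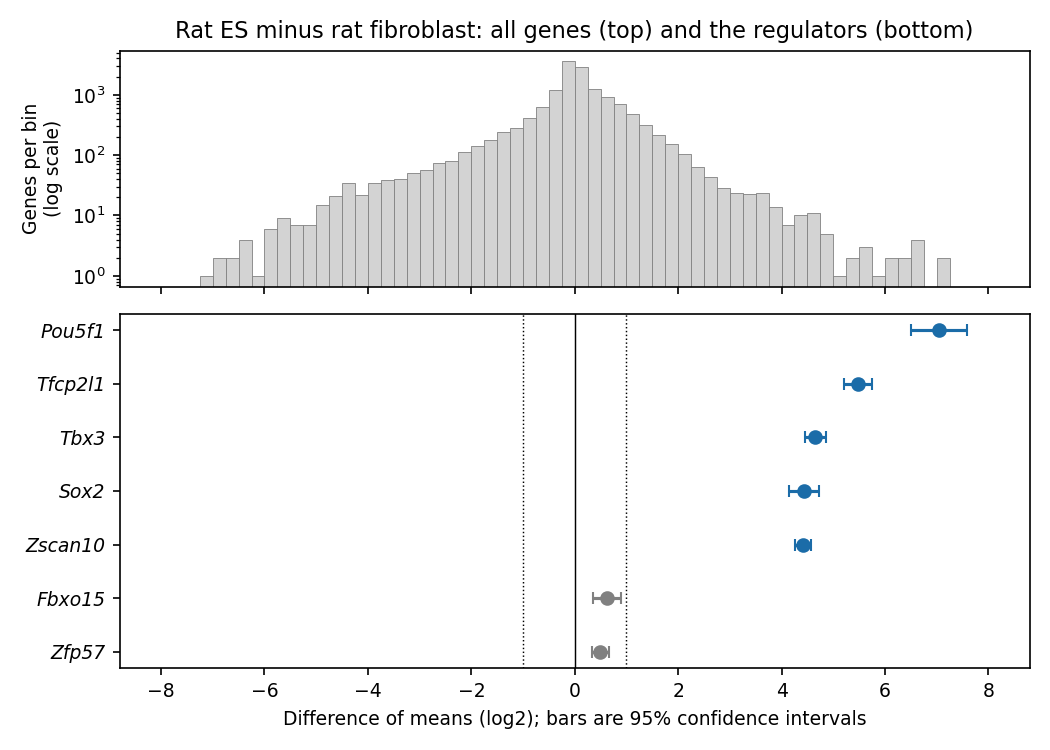
Top: number of genes (log axis) by log2 difference between rat ES cells and rat fibroblasts, over all 14506 genes. Bottom: the difference of each regulator with its 95% confidence interval and dotted lines at 2-fold, where Pou5f1 (7.04) is farthest out and Fbxo15 (0.63) and Zfp57 (0.50) lie inside the lines.

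Mouse ES cells were read on another array platform whose table was normalized separately. Their signals were therefore compared only as percentiles, the place of a gene within its own array among the 12114 symbols found in both tables. Mouse values carry no SD here, because many repeat exactly between arrays: 54.4% of named mouse genes had the same value on all 3, Tbx3, Zscan10 and Prdm14 among them, and Tfcp2l1 and Fbxo15 had the same value on arrays 1 and 3. Species, platform and medium differ together between mouse and rat ES cells and cannot be told apart, and with 3 against 3 arrays an exact permutation test cannot go below p = 0.1. The percentiles are given as a description with no test. Over all shared symbols, the mean percentiles of mouse and rat ES cells differed by a median of 8.63 points in size. This median and the shares below take symbols of every level, and symbols of similar level were not compared apart.

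For the core pair the 2 species gave nearly the same place. Pou5f1 stood at percentiles 98.5 to 98.8 in rat ES cells and 99.5 to 99.6 in mouse ES cells, against 5.62 to 18.4 in rat fibroblasts. Sox2 was at 97.1 to 97.6 in rat ES cells and 96.5 to 97.3 in mouse ES cells, against 39.9 to 46.4 in fibroblasts. The Sox2 ranges of the ES groups overlap. Mouse minus rat, the mean gap was 0.87 points for Pou5f1 and -0.48 for Sox2, and the latter turned to 0.41 when all named genes of each table were ranked. Gaps at least as large as these were found in 93.0% and 96.0% of shared symbols of every level. These shares do not show that the gaps are small for genes of this level.

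For Zscan10 and Tfcp2l1 the mouse percentiles were below those of rat ES cells. Zscan10 was at 93.7 to 94.3 in rat and 89.0 to 90.1 in mouse ES cells, a gap of -4.48 points that shrank to -1.97 among all named genes and grew to -6.58 among symbols above the 25th percentile of level. Among shared symbols of every level, 69.8% had a gap at least that large. Tfcp2l1 was at 96.1 to 96.7 in rat and 85.0 to 85.4 in mouse ES cells, a gap of -11.2 points (-7.38 and -16.4 in the same 2 rankings). Among shared symbols 40.9% had a gap at least that large.

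Tbx3, Fbxo15 and Zfp57 had the widest gaps. Tbx3 was at 97.8 to 97.9 in rat ES cells and 66.6 to 68.0 in mouse ES cells, a gap of -30.8 points, and in mouse its log2 signal was 6.86 on every array. Among shared symbols 6.95% had a gap of that size or more. The mouse place of Tbx3 was still above that of rat fibroblasts, at 40.0 to 43.7. Fbxo15 ran the other way, at 27.7 to 36.2 in rat ES cells and 63.0 to 63.5 in mouse ES cells, a gap of 30.4 points that 7.12% of shared symbols reached. Zfp57 was at 74.3 to 76.0 in rat and 95.3 to 95.6 in mouse ES cells, 20.1 points higher in mouse, with 18.4% of shared symbols at that size or more. These 3 gaps kept their direction in the other rankings tried and without each array, between -44.9 and -23.1 for Tbx3, 27.9 and 38.4 for Fbxo15 and 19.0 and 29.3 for Zfp57.

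Prdm14 could be read only in mouse ES cells. Its log2 signal was 4.98 on all 3 arrays, against mouse array medians of 4.75 to 4.77 over all probe sets, and its mean percentile among the 19938 named mouse genes was 45.5. In the same ranking Pou5f1 stood at 99.7, Sox2 at 97.9, Zfp57 at 96.8, Zscan10 at 92.3, Tfcp2l1 at 89.1, Tbx3 at 74.8 and Fbxo15 at 71.6. Prdm14 was the only one of the 8 below the middle of the named mouse genes. Percentiles of different probe sets depend on the probes as well as on the RNA, so this is no ranking of transcript amounts.

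**Figure D3:**
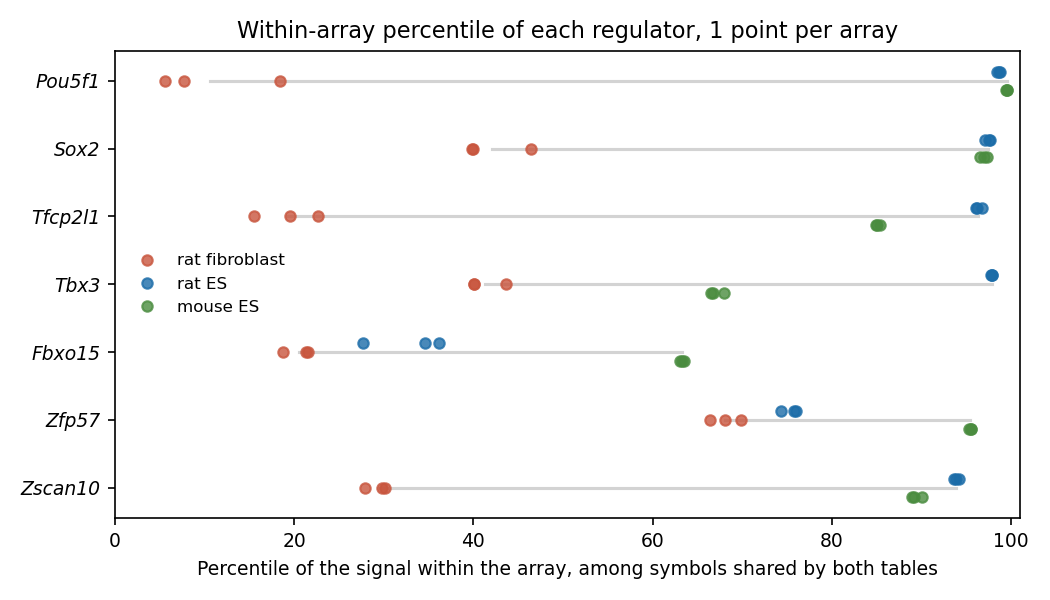
Percentile of each regulator within its array among the 12114 symbols shared by the rat and mouse tables, 1 point per array, with a grey line spanning the means of the groups. Pou5f1 and Sox2 sit above 96 in both ES groups, Tbx3 is near 98 in rat and 67.1 in mouse ES cells, and Fbxo15 and Zfp57 lie farther right in mouse than in rat ES cells.

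The genes around the 8 regulators were read by 12 lists of partners, targets and relatives. They are described by counts and medians only, since the lists were drawn up with earlier results of these data known. Some genes stand in more than 1 list, and Nanog, Esrrb, Dppa3 and Dnmt3l are also among the ES cell markers above. The lists are therefore not independent of each other or of the markers. Each count stands against 10.6% of all genes called higher and 10.1% called lower. Among 15 other measured regulators of the core network, 8 passed as higher and none as lower (limma, 9 and 2 at an unadjusted p under 0.05), with a median log2 difference of 1.09. The 3 largest were Nanog (6.73), the homeobox factor of the core network, Klf5 (4.73), a Kruppel-like factor, and Esrrb (3.86), an orphan nuclear receptor. Nanog read 11.21, 11.09 and 11.10 in rat ES cells and 4.12, 4.31 and 4.78 in fibroblasts, the same wide separation as Pou5f1. Its fibroblast signals also lay below the array medians, so its fold is uncertain in the same way. All 4 measured genes listed for a described Oct4-Sox2 element were called, 3 higher and 1 lower. How the 2 factors act at each of these genes was not checked. Nanog and Lefty1 (4.02), a Nodal antagonist, rose most, and Fgf4 (1.10), the growth factor in whose enhancer the element was first studied, rose least. Spp1, which encodes the secreted protein osteopontin, fell by 4.57, with signals of 7.54 to 7.64 in rat ES cells and 12.12 to 12.16 in fibroblasts.

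Proteins found with Oct4 or Sox2 in complexes were read next. Of 21 measured partners, 10 were called higher and none lower by limma (17 and 2 at an unadjusted p under 0.05), with a median of 1.00 and with 10.6% of all genes called higher. Wdr5, a subunit of histone H3 lysine methyltransferase complexes, led at 3.50, with 12.04, 11.97 and 11.96 in rat ES cells against 8.49, 8.57 and 8.41 in fibroblasts. Parp1, the poly(ADP-ribose) polymerase of DNA repair, differed by 2.36 and the zinc finger gene Zfp217 by 2.21.

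**Figure D4:**
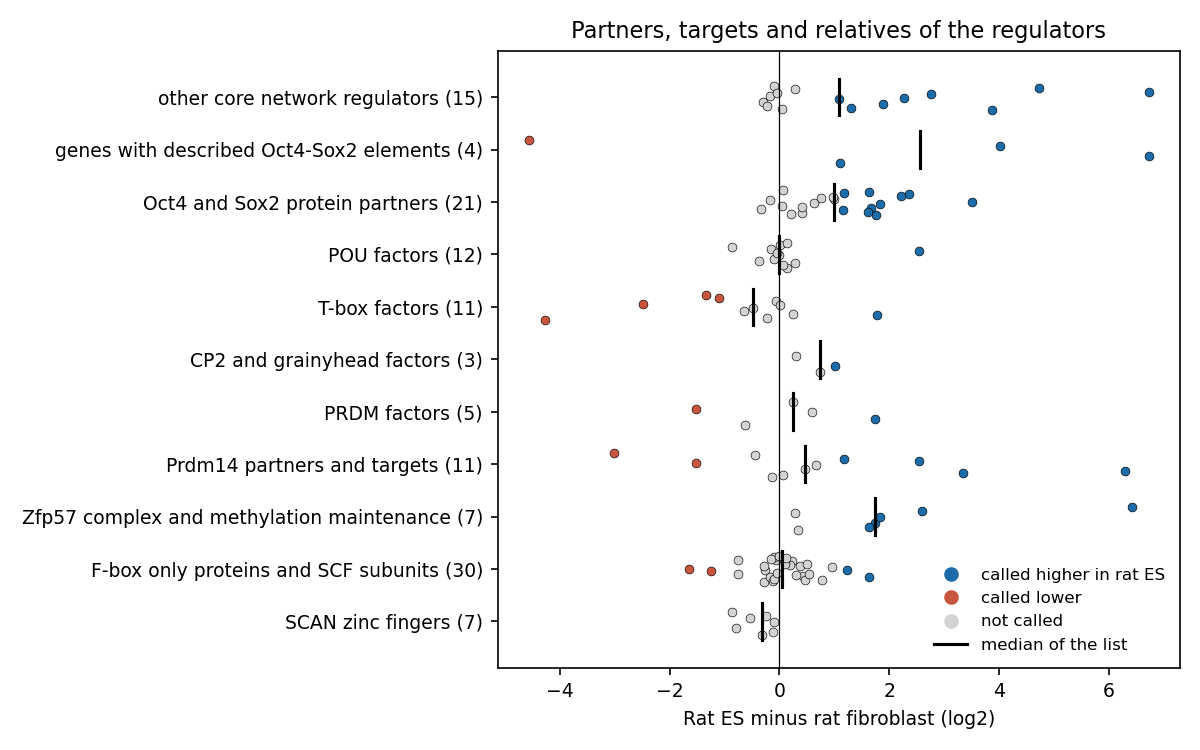
Log2 difference between rat ES cells and rat fibroblasts for each measured gene of 11 lists, with the number of genes in brackets and a black bar at the median. The list of the Zfp57 complex and methylation maintenance has the farthest right median among lists of 5 or more genes (1.74). T-box factors lie mostly left of 0, and the POU and F-box lists centre near 0. All 7 SCAN genes lie left of 0 (median -0.31).

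The family relatives of the regulators did not move as a block. Over all genes, 10.6% were called higher and 10.1% lower. Among 12 other POU factors only Pou2f1, which encodes the widely expressed Oct1, was called higher (2.55), with 9.14, 9.19 and 8.92 in rat ES cells against 6.49, 6.58 and 6.55 in fibroblasts. The other 11 were not called, and the list median was -0.01. Of 11 other T-box factors measured, 4 were called lower, namely Tbx15 (-4.26), Tbx18 (-2.48), Tbx5 (-1.34) and Tbx2 (-1.11), all of them factors of mesenchymal, limb or heart development, while Tbxt, the mesoderm factor Brachyury, was called higher (1.78). Tbx2, the closest relative of Tbx3, read 5.38, 5.93 and 6.05 in rat ES cells and 6.82, 6.80 and 7.06 in fibroblasts, and it lost its call without rat ES array 1 (-0.91). Tfcp2, a CP2 relative of Tfcp2l1, lay at the 2-fold line (1.00) and fell under it in 4 other settings (0.94 to 0.98), while 2 grainyhead genes were not called. Neither of the SOXB1 relatives of Sox2, Sox1 and Sox3, was found by symbol in the rat table. In mouse ES cells they stood at percentiles 77.3 and 72.0 among all named genes.

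Of 5 measured PRDM relatives of Prdm14, Prdm2 was called higher (1.74) and Prdm1, a regulator of germ cell fate, lower (-1.51). Prdm1 gave low signals, at 3.90 to 4.14 in rat ES cells and 5.31 to 5.78 in fibroblasts, and with low values raised to the 25th percentile it missed the 2-fold line (-0.87). Among 11 measured partners and targets of Prdm14, 4 were called higher, 2 were called lower, and the median was 0.47. The DNA methylation cofactor Dnmt3l (6.29), the germ cell factor Tfap2c (3.34), the de novo methyltransferase gene Dnmt3b (2.55) and the Polycomb methyltransferase gene Ezh2 (1.18) rose, and the FGF receptor gene Fgfr2 (-3.02) fell with Prdm1. Dnmt3b, which Prdm14 represses in mouse ES cells, stood at a mean percentile of 55.1 in rat ES cells and 97.9 in mouse ES cells. Dnmt3l was at 98.5 and 99.2, and Fgfr2 at 26.5 and 51.7.

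Most measured genes on the list around Zfp57 rose, beside the 1.41-fold difference of Zfp57 itself. Of 7 measured genes of its complex and of methylation maintenance, 5 were called higher and none lower by limma (7 and 0 at an unadjusted p under 0.05), with a median of 1.74. These were Dppa3 (6.43), which protects maternal imprints, Uhrf1 (2.61), which recruits Dnmt1, the remodeller Hells (1.82), Dnmt1 (1.74), the maintenance methyltransferase, and Trim28 (1.63), the corepressor that Zfp57 recruits. Trim28 was at 12.80, 12.70 and 12.66 in rat ES cells and 11.12, 11.09 and 11.06 in fibroblasts, and stood above percentile 98 in all 3 groups. Dppa3 was at a mean percentile of 98.9 in rat ES cells but 49.3 in mouse ES cells, a wider gap than that of Tbx3. Its fibroblast signals lay below the array medians, so its fold is uncertain. Of 30 F-box and SCF genes around Fbxo15, 2 were called higher, the mitotic inhibitor Fbxo5 (1.62) and Fbxo7 (1.24), against 10.6% of all genes. Another 2 were called lower, Fbxo4 (-1.65) and the muscle atrophy gene Fbxo32 (-1.25), against 10.1% of all genes. Both lower calls were lost with low values raised to the 25th percentile (-0.92 and -0.64). The SCF core subunits Skp1 (0.12), Cul1 (-0.29) and Rbx1 (0.53) were not called. Of 7 SCAN zinc finger genes related to Zscan10, limma called none, while 4 had an unadjusted p under 0.05 and 3 an adjusted p under 0.05, all lower and under 2-fold.

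The chromosomal neighbours of the 7 genes, taken as the nearest measured protein-coding gene on each side in the RefSeq order, were also read. None of the 14 neighbours was called higher by limma (3 at an unadjusted p under 0.05), against 10.6% of all genes. Called lower were 2 (5 at an unadjusted p under 0.05), against 10.1% of all genes. These were Gli2 (-1.48) beside Tfcp2l1 and Tbx5 (-1.34) beside Tbx3. Gli2 is the Hedgehog pathway transcription factor. On either side of Pou5f1, Tcf19 differed by -0.74 and RT1-CE16 by -0.70. Next to Sox2, Fxr1 differed by 0.83 and Atp11b by -0.37, in each case with 1 unmeasured gene between. Beside Zscan10, Zfp13 differed by 0.85 and Bicdl2 by 0.17.

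Genes with the most similar rat profile were found by the root mean square distance between log2 values, each gene centred on its own mean over the 6 rat arrays. The measure is governed by the size of the difference between the groups. Closest to Pou5f1 were Akr7a3 (distance 0.252), Tcl1a (0.258), Ifitm1 (0.351), Dppa3 (0.402) and Bex4 (0.424). Sox2 was nearest to Cnpy1 (0.126), Trh (0.160), Ass1 (0.166), Fkbp6 (0.166) and Lama1 (0.175). For Tfcp2l1 the nearest were Lifr (0.195), the LIF receptor gene, Gdf3 (0.197), Tmc1 (0.222), Tdh (0.226) and Tex15 (0.290). Tbx3 lay beside Trh (0.078), Lama1 (0.130), Pecam1 (0.139), Igfbpl1 (0.151) and Klf5 (0.159), and Zscan10 beside Lama1 (0.084), Igfbpl1 (0.102), Apoe (0.105), Nefl (0.107) and Ass1 (0.115). Their places in mouse ES cells ranged widely. Tmc1 stood at percentile 92.9 in rat and 8.39 in mouse ES cells and Tex15 at 90.9 and 13.7, whereas Apoe was at 99.3 and 99.7 and Klf5 at 98.5 and 94.6.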

How the data were processed

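Total RNA was labelled with biotin and hybridized per the labels' protocols, to 1 array per sample, for 3 rat ES, 3 rat fibroblast and 3 mouse ES samples. The values deposited by the authors are log2 signals, 1 per probe set, for 29215 rat and 35557 mouse probe sets. Their range shows the log2 scale; how background, normalization and probe summary were handled is not stated in the sources used here. Deposited values were used as they stand. Symbols came from the platform annotation, which can be old, and only probe sets with a single symbol were kept (15310 rat, 21789 mouse). For a symbol with several probe sets, the one with the highest mean was kept.

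Rat ES cells and fibroblasts were set against each other in R 4.3.3 with limma 3.58.1, fitting lmFit and eBayes on group alone over all 14506 genes with no filter on level, and calls need an adjusted p under 0.05 and at least 2-fold. The fit was run on simulated data with independent normal noise and far fewer changed genes than in these data. That run does not cover error shared between arrays or signals near background. The number of arrays limits the precision. Named genes are all 8 regulators, every called gene of a list with 6 or fewer calls and otherwise the 3 largest each way, the 2 largest each way among markers, and the 5 nearest profiles. Neighbours and some uncalled genes were chosen after their values were seen. The 8 genes and all lists were chosen with earlier results of these data known. Alternatives were other normalizations, filters, probe set rules, variance settings, thresholds, a replicate block, other rankings, each array left out, and a floor on low signals.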

Additional observations from a re-analysis of the deposited data

How the results depend on the processing

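The count of 5 called regulators among 7 was the same under quantile normalization, median centring, both filters on level (among 6 left at the stricter one), the mean of all probe sets, probe sets tested singly, the trended and robust form of eBayes, the low-signal floor chosen after seeing the data, adjusted p under 0.01, a 4-fold threshold and without each rat array in turn. With no fold threshold Fbxo15 (0.63) and Zfp57 (0.50) were called too, which makes 7. Without a fold threshold all genes called were 8172 and those of the related lists 82, against 2996 and 43, and at 4-fold they were 995 and 19. Same-numbered arrays of the rat groups did not deviate together (correlations -0.00044, 0.031 and -0.0003), so the numbers were not taken as pairs. With the replicate block, 5 regulators and 2996 genes were called, as without it. The percentile gap of Sox2 between mouse and rat ES cells reversed to 0.41 points among all named genes. Signals below the array medians limit the folds of Pou5f1, Tfcp2l1 and Zscan10 and any reading of Fbxo15. Folds of list genes, markers and similar profiles with 1 group below those medians are limited in the same way. Fibroblast signals of Tbx3, and of Sox2 on fibroblast arrays 2 and 3, lay below the medians over named genes.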
